A study of Mus musculus with 24 samples.

Results

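Nr4a1, Nr4a2 and Nr4a3, the 3 genes of the Nr4a family of nuclear receptors, were taken by symbol from 24421 counted genes in T cells sorted as CD45+CD3+CD8+ from mouse pancreas and blood. All 3 were in the files. They were chosen by an earlier reading of these same libraries in which their levels differed between pancreas and blood, so that difference is given here as a description and no test is attached to it. The other comparisons (age, genotype, how the genes vary together) were tested.

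The 24 libraries fell into 4 groups. KC mouse pancreas had 12 libraries, 3 at 4 weeks after birth, 2 at 9 weeks, 3 at 13 weeks, 2 at 20 weeks and 2 at 30 weeks. KC mouse blood had 9 libraries, 2 at 4 weeks, 1 at 9 weeks, 3 at 13 weeks, 1 at 20 weeks and 2 at 30 weeks. WT B6 pancreas had 1 library at 9 weeks and 1 at 30 weeks, and WT B6 blood had 1 library at 30 weeks. The labels name the KC mice by these letters alone and give neither their alleles, the sex nor the number of animals behind a library. The age of 9 weeks stands in the sample labels and not in the design text of the series. Libraries are called here by their titles, in which P8 marks pancreas and B8 marks blood. Nothing in the labels says which libraries came from separate animals, so the p-values measure the spread between these libraries, which may be partly technical.

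Gene counts per library ran between 6352070 and 16716200 with a median of 9602260. Cd3e stood between 3791 and 15654 CPM (gene counts scaled to the same total in each library), Cd8a between 587 and 3003 CPM and Cd8b1 between 282 and 1776 CPM, while Cd4 did not exceed 39.4 CPM in any library. The libraries also fell into 2 sets of 12 that share traces of genes very abundant in only 1 library: such genes were detected in 92.4% of the other libraries of the same set, at a median of 0.205% of the level in the source library, and in 47.7% of the libraries of the other set, at a median of 0. These trace sets were found in the counts and are not named in the labels. Trace set 1 holds the KC pancreas libraries of 4 and 13 weeks, 3 KC blood libraries (Sample_42B8, Sample_43B8 and Sample_131B8) and all 3 WT libraries. Trace set 2 holds the KC pancreas libraries of 9, 20 and 30 weeks with the remaining 6 libraries of KC blood. None of the 3 Nr4a genes was among the 95 genes that defined the sets.

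Nr4a proteins are transcription factors of the nuclear receptor family that act without a known hormone, so their activity is set largely by how much of them is made. In T cells the genes are switched on quickly by signals from the antigen receptor, through calcium, calcineurin, NFAT and MEF2 and through kinases that act on CREB, and their transcripts are short-lived. In mouse CD8+ T cells the family is known for a role in the dysfunctional state that follows lasting antigen exposure and in the programme of cells resident in tissues. Nr4a1 (Nur77) is widely used as a reporter of recent receptor signals, Nr4a2 (Nurr1) is best known for its part in dopamine neurons, and Nr4a3 (NOR-1) is the third relative with a very similar DNA-binding domain.

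In GENCODE M21 on GRCm38 (mm10), Nr4a1 (ENSMUSG00000023034.7) lies on the plus strand at chr15:101254269-101274795 with 3509 bases of joined exons. Nr4a2 (ENSMUSG00000026826.13) lies on the minus strand at chr2:57106830-57124003 with 4059 exon bases. Nr4a3 (ENSMUSG00000028341.9) lies on the plus strand at chr4:48045153-48086447 with 5987 exon bases. No other gene of that annotation overlaps any of the 3. Levels are set side by side between genes only as CPM per kb of these exon lengths.

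The promoters are shown because the 3 genes share a sequence feature there. In RefSeq windows of GRCm38.p6 that run from 250 bases before to 50 bases after a gene's start, each of the 3 holds 4 copies of TGACG, the core of the cyclic AMP response element that CREB proteins bind, counted on both strands and overlapping no other motif searched. The stretches run 5′ to 3′ on the gene's strand from the window's start to 5 bases past the last copy, at chr15:101266596-101266815 (plus) for Nr4a1, chr2:57124105-57124253 (minus) for Nr4a2 and chr4:48045055-48045167 (plus) for Nr4a3, with the copies in capitals (CGTCA is the same core on the other strand):
Nr4a1: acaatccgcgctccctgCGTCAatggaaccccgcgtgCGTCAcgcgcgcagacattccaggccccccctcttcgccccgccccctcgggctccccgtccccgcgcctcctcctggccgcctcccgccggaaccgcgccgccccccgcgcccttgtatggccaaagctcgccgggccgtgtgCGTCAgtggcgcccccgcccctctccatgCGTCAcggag
Nr4a2: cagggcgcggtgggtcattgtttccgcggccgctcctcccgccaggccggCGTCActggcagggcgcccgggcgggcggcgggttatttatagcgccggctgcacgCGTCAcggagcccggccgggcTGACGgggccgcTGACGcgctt
Nr4a3: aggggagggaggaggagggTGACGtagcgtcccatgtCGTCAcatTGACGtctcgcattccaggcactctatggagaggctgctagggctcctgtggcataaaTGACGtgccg

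The copies begin 233 to 40 bases upstream of the RefSeq start in Nr4a1, 200 to 111 bases upstream in Nr4a2 and 231 to 147 bases upstream in Nr4a3. The RefSeq starts of Nr4a1 and Nr4a3 differ from the GENCODE starts given above. The Nr4a1 stretch lies inside the GENCODE gene, with 0 bases in its exons. In Nr4a3 the last 15 printed bases, which include the last copy, lie in a GENCODE exon. Of 32851 mouse windows of this length, 20.8% hold at least 1 copy and 76 (0.231%) hold at least 4, and among the 6056 windows whose GC content lies in the range of the 3 genes (64.7% to 81.7%, against a median of 52.7% for all windows) the share is 0.578%. The count of 4 was picked after the 3 windows had been read. None of the 3 windows holds the full element TGACGTCA (1.79% of all windows), the AP-1 motif TGANTCA (7.81%), the NBRE motif AAAGGTCA that Nr4a proteins bind (1.51%) or a CArG box (1.63%). Nr4a2 alone holds letters of a MEF2 motif (3.19% of windows), which overlap a TATA box match, TATAAA on the opposite strand (13.6%). These are matches of letters in a window, not measured binding.

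Nr4a1 had between 1.84 and 259 CPM in the 12 KC pancreas libraries with a median of 21.4 CPM, and between 0.792 and 2.57 CPM in the 9 KC blood libraries with a median of 1.46 CPM. In 11 of the 12 pancreas libraries its CPM lay above the highest blood library, and the 1 that did not, Sample_94P8 of 9 weeks, had 14 counts. The count depends on the scale. On TMM-scaled CPM (CPM rescaled between libraries by the TMM method), the highest KC blood library was Sample_42B8 at 3.73. Sample_94P8 (2.03) and Sample_303P8 (2.64, from 17 counts) both lay below it. The fitted log2 fold change of pancreas over blood, with age in the model, was 5.11 ± 1.03 (SE, 12 and 9 libraries). The spread sits almost wholly in the pancreas: the mean was 71.95 ± 99.2 CPM in KC pancreas and 1.62 ± 0.680 CPM in KC blood (SD, n = 12 and 9).

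Nr4a2 had between 0.388 and 172 CPM in KC pancreas with a median of 8.58 CPM, and between 0.463 and 12.05 CPM in KC blood with a median of 0.712 CPM. Its pancreas libraries split widely. In 4 of them (Sample_132P8, Sample_41P8, Sample_94P8 and Sample_205P8) it had 3 to 7 counts (0.388 to 0.721 CPM), about as little as in the blood libraries, while 5 lay above the highest blood library. Its fitted log2 fold change was 4.56 ± 1.12 (SE).

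Nr4a3 had between 21.3 and 400 CPM in KC pancreas with a median of 78.7 CPM, and between 2.49 and 80.2 CPM in KC blood with a median of 5.43 CPM. In 6 of 12 pancreas libraries it lay above the highest blood library, and 7 of 9 blood libraries lay below the lowest pancreas library. The overlap comes from Sample_302B8 at 80.2 CPM and Sample_95B8 at 33.1 CPM. Its fitted log2 fold change was 3.52 ± 0.80 (SE). In bulk libraries, a larger share of cells that express a gene and more RNA of it per cell cannot be told apart.

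The WT libraries did not show the members in 1 common order of tissues. Nr4a1 had 1.90 CPM (Sample_W1P8, 9 weeks) and 49.2 CPM (Sample_W3P8, 30 weeks) in WT pancreas, against 5.80 CPM in WT blood (Sample_W3B8, 30 weeks). Nr4a2 had 3.04 and 0.239 CPM in WT pancreas, against 0.239 CPM in WT blood. Nr4a3 had 34.9 and 6.94 CPM in WT pancreas, against 16.9 CPM in WT blood. Sample_W3P8 therefore carried high Nr4a1 with 3 counts of Nr4a2 and a Nr4a3 level under that of the blood library of the same title number.

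**Figure D1:**
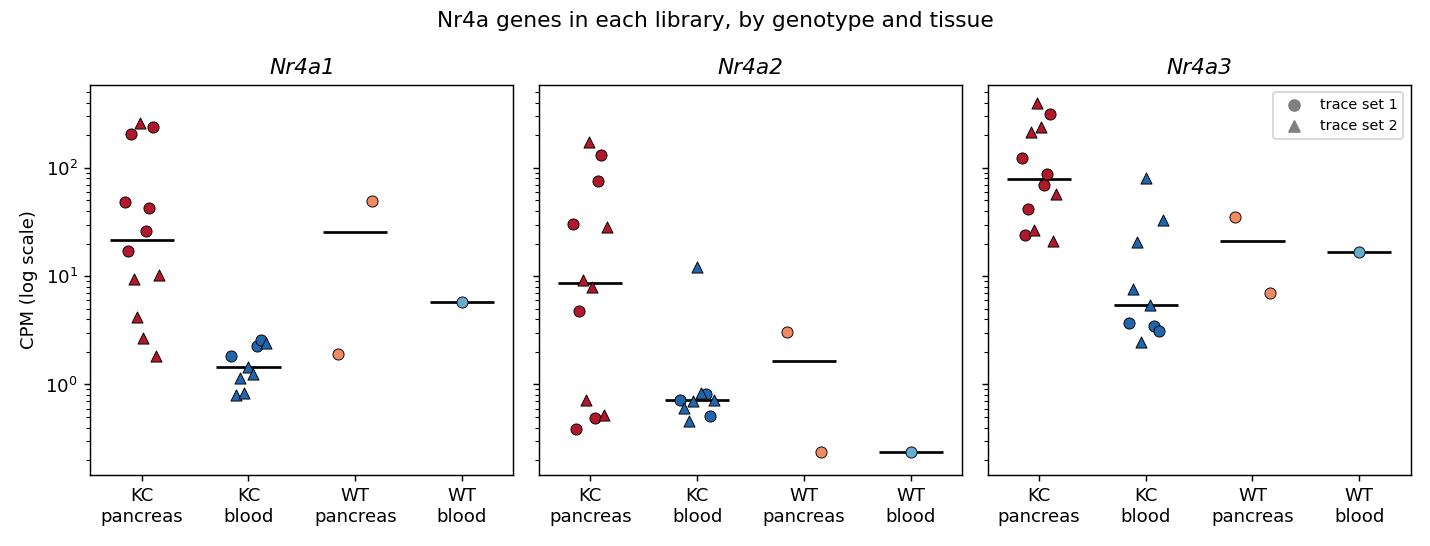
CPM of each Nr4a gene in every library (log axis), by group from left to right KC pancreas, KC blood, WT pancreas and WT blood. Each point is 1 library, the shape gives its trace set and the black line is the group median. Nr4a1 in KC pancreas reaches 259 CPM while no KC blood library exceeds 2.57 CPM, and Nr4a2 in KC pancreas covers the widest range.

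The trace sets bear on the low values. Within each trace set, the library with the highest CPM of each member was Sample_43P8 (set 1) or Sample_302P8 (set 2). Relative to that library, Nr4a1 stood at 0.306% to 1.09% in the KC blood libraries, and 8 of 9 were at or below 1.01%, the level under which 90% of traces from other libraries lay. Nr4a2 was at or below that level in 4 of the 10 KC pancreas libraries other than these highest ones and in 8 of 9 KC blood libraries, and Nr4a3 in 0 of 10 KC pancreas and 2 of 9 KC blood libraries. Whether the low blood levels of Nr4a1 and Nr4a2 are transcripts of the blood cells or traces was not tested. With each trace set fitted alone, the log2 fold change of Nr4a1 was 5.22 ± 1.74 in set 1 and 5.65 ± 1.31 in set 2, and that of Nr4a3 was 4.48 ± 1.63 in set 1 and 3.23 ± 0.84 in set 2. Nr4a2 had 5.20 ± 2.11 in set 1 and was removed by the filter on low counts in set 2.

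Per kb of exon, Nr4a3 was the most abundant member in 7 of 12 KC pancreas libraries, Nr4a1 in 4 and Nr4a2 in 1. In KC blood Nr4a3 led in 7 of 9 libraries and Nr4a1 in 2. The make-up of the family varied more between libraries of a group than this order shows. Nr4a1 was 87.9% of the family's CPM per kb in Sample_133P8 and 1.81% in Sample_303P8, both from KC pancreas, and Nr4a3 was 10.4% in the first of these and 93.5% in the second. Nr4a2 reached 40.7% in Sample_42P8 and 35.6% in Sample_95P8 but was 0.633% in Sample_41P8, which has the age and tissue of Sample_42P8. In WT pancreas, Nr4a1 made up 92.0% of the family in Sample_W3P8 and 7.59% in Sample_W1P8.

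**Figure D2:**
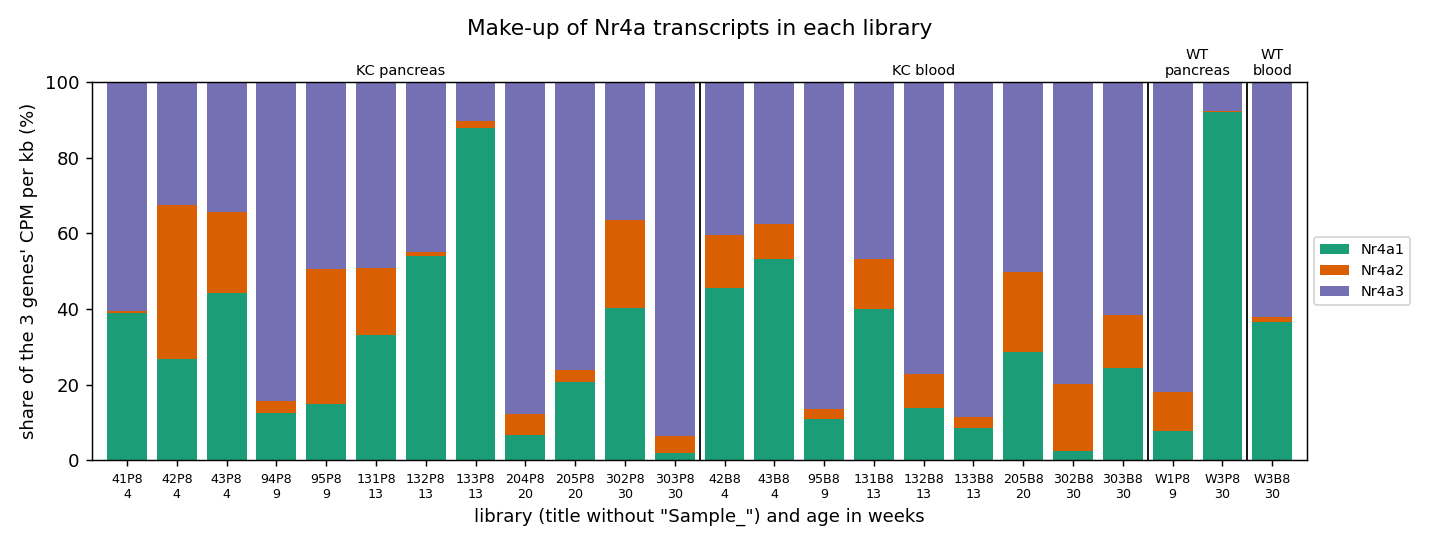
Share of the 3 genes' summed CPM per kb of exon in each library, with libraries ordered by group (KC pancreas, KC blood, WT pancreas, WT blood) and by age in weeks. Nr4a3 has the largest share in 7 of 12 KC pancreas and 7 of 9 KC blood libraries, and Nr4a1 in Sample_133P8 and Sample_W3P8 stands out at 87.9% and 92.0%.

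Among nuclear receptor genes as a whole, Nr4a3 averaged 22.5 ± 21.2 CPM per kb in KC pancreas and 2.97 ± 4.28 CPM per kb in KC blood (SD, n = 12 and 9), which ranked 1 and 10 among 49 receptor genes. Nr4a1 averaged 20.5 ± 28.3 and 0.462 ± 0.194 CPM per kb in the same tissues, with ranks 2 and 18. Nr4a2 averaged 9.47 ± 14.2 and 0.477 ± 0.935 CPM per kb, with ranks 6 and 17. The SDs of Nr4a3, Nr4a1 and the next receptors overlap, so the order at the top of the pancreas list is not firm.

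The 3 most abundant other receptors in KC pancreas were Nr3c1, the glucocorticoid receptor (17.7 ± 11.9 CPM per kb, against 43.7 ± 31.0 in KC blood), Rara, a retinoic acid receptor (16.4 ± 17.2, against 16.9 ± 19.2), and Nr2c2, the orphan receptor TR4 (12.3 ± 7.02, against 9.28 ± 6.13). Of the 46 other receptor genes, 22 were tested between the tissues and 0 passed at an adjusted p under 0.05 (edgeR quasi-likelihood test), 3 had an unadjusted p under 0.05, and DESeq2 called 1, Rarg, lower. Over all 11059 genes tested, edgeR called 10 (0.0904%), 1089 (9.85%) had an unadjusted p under 0.05, and DESeq2 called 479 (4.33%). The receptors' median log2 fold change was -0.03, with 11 of 22 positive, and 0.09 without Sample_302P8 or with DESeq2, and the range ran from -2.83 to 4.07. The smallest adjusted p values were 0.345 for Nr2f2, a receptor of stromal and endothelial cells (log2 fold change 4.07 ± 1.59), and 0.389 for Nr3c1 (-1.28 ± 0.54).

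Libraries of pancreas and blood that share a title number and a genotype formed 9 KC pairs and 1 WT pair. The labels do not say that a shared number means a shared animal. Nr4a1 was higher in pancreas in 9 of 9 KC pairs, by 2.14-fold to 178-fold with a median of 21.4-fold. Nr4a3 was higher in 9 of 9, by 1.75-fold to 102-fold with a median of 10.6-fold. Nr4a2 was higher in 8 of 9 on CPM, with a median of 14.3-fold and a highest fold of 255.

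The 3 members did not keep 1 order of fold over the pairs. The exception for Nr4a2 was the pair Sample_132P8 and Sample_132B8 of 13 weeks, with 3 counts in pancreas and 10 in blood. Its CPM ratio was 0.637, and the exact 95% counting interval of 0.113 to 2.47 includes equal levels. On TMM-scaled CPM the order was the reverse, with 0.818 in Sample_132P8 and 0.384 in Sample_132B8. In that pair Nr4a1 was 21.4-fold higher in pancreas. In the WT pair of 30 weeks, Nr4a1 was 8.48-fold higher in pancreas (interval 6.84 to 10.6), Nr4a3 had a ratio of 0.411 (0.320 to 0.525), and Nr4a2 had 3 and 4 counts (interval of the ratio 0.147 to 5.91). These intervals cover counting error only, and the WT pair has no replicate.

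**Figure D3:**
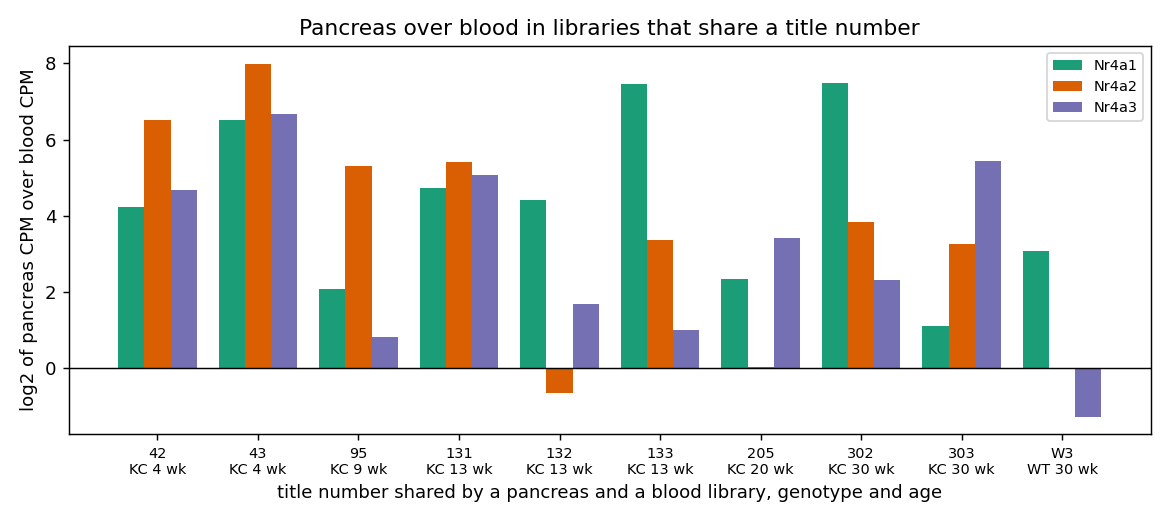
log2 of pancreas CPM over blood CPM for each Nr4a gene in the 9 KC pairs and the 1 WT pair of libraries that share a title number, ordered by genotype and age. Bars above 0 are higher in pancreas. All bars of Nr4a1 are above 0, and the Nr4a3 bar of the WT pair is at -1.28.

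The members were then compared with each other across libraries, a relation that does not use the difference between tissues. Over the 12 KC pancreas libraries, log2(CPM + 1) of Nr4a2 and Nr4a3 had a Pearson r of 0.769 (permutation p = 0.00511, adjusted over 6 relations 0.0307) and a Spearman rho of 0.783 (p = 0.00378, adjusted 0.0227). Nr4a1 and Nr4a2 had r = 0.628 (permutation p = 0.0321, adjusted 0.0963) and rho = 0.587 (p = 0.0487, adjusted 0.146). Nr4a1 and Nr4a3 had r = 0.446 (permutation p = 0.145, adjusted 0.217) and rho = 0.497 (p = 0.103, adjusted 0.206).

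Only the relation of Nr4a2 with Nr4a3 passed the adjustment, and it leans on the highest libraries. Without Sample_302P8 and Sample_43P8, the pair of libraries farthest from the median, r was 0.591 for Nr4a2 with Nr4a3 (permutation p = 0.0764), 0.330 for Nr4a1 with Nr4a2 (p = 0.348) and 0.0325 for Nr4a1 with Nr4a3 (p = 0.928). On TMM-scaled CPM the relation of Nr4a2 with Nr4a3 had r = 0.723 and an adjusted permutation p of 0.0624. Without Sample_302P8 and Sample_43P8 it had r = 0.490 on that scale (permutation p = 0.151). For Nr4a1 the libraries farthest from the median on that scale were Sample_133P8 and Sample_94P8. Without them r was 0.661 with Nr4a2 (unadjusted permutation p = 0.0412) and 0.531 with Nr4a3 (p = 0.119). With all libraries these were 0.607 and 0.505, and neither passed the adjustment. Within trace set 1, r was 0.824 for Nr4a2 with Nr4a3 (n = 6, exact permutation p = 0.0403), 0.561 for Nr4a1 with Nr4a2 (exact p = 0.279) and 0.534 for Nr4a1 with Nr4a3 (exact p = 0.276). Within trace set 2 the values in the same order were 0.774 (n = 6, exact permutation p = 0.0792), 0.885 (exact p = 0.0125) and 0.635 (exact p = 0.113).

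In the 9 KC blood libraries, r was 0.682 for Nr4a2 with Nr4a3 (exact permutation p = 0.0835, adjusted 0.167; rho 0.300), -0.0387 for Nr4a1 with Nr4a2 (exact p = 0.955, adjusted 0.977; rho 0.183) and 0.0111 for Nr4a1 with Nr4a3 (exact p = 0.977, adjusted 0.977; rho -0.0667). None passed. The first of these rests on Sample_302B8, since without it and Sample_133B8 r was 0.0699 (n = 7, exact permutation p = 0.901). Within the 6 blood libraries of trace set 2, r was 0.678 for Nr4a2 with Nr4a3, 0.191 for Nr4a1 with Nr4a2 and 0.655 for Nr4a1 with Nr4a3 (exact permutation p = 0.129, 0.561 and 0.136). The 3 KC blood libraries of trace set 1 were too few for a value.

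Genes whose level followed each member most closely over the 12 KC pancreas libraries were ranked by Spearman rho among 11058 genes, as a description. For Nr4a3 they were Lax1, an adaptor that restrains antigen receptor signals (rho 0.916), Lrrc58 (0.909), Kdm6a, a histone H3K27 demethylase (0.895), Dusp1, a phosphatase that switches off MAP kinases (0.881), and 4930503L19Rik (0.874). For Nr4a2 they were 4632415L05Rik (0.923), Tmem2 (0.916), Il18r1, a chain of the interleukin-18 receptor (0.881), 1110051M20Rik (0.876) and Ifngr1, a chain of the interferon gamma receptor (0.874). For Nr4a1 they were Hgs, an endosomal sorting protein (0.881), Tlr7, an RNA sensor (0.881), Tmem9b (0.874), Dkk3 (0.848) and Aplp2 (0.839).

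The members were not each other's closest companions. Nr4a2 ranked 21 for Nr4a3 and Nr4a3 ranked 44 for Nr4a2, while for Nr4a1 the ranks were 309 for Nr4a2 and 603 for Nr4a3. The points share libraries, depth and trace set. Several of the leading genes were low, with a median of 0.346 CPM for Dkk3, 0.177 CPM for 1110051M20Rik and 1.04 CPM for 4930503L19Rik, where ranks rest on few counts.

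Some early genes of receptor signalling were higher in KC pancreas than in KC blood. Over all genes, 10 of 11059 (0.0904%) passed between the tissues, 8 higher and 2 lower in KC pancreas, with an all-gene median log2 fold change of -0.12. Of 30 genes known to be induced early by receptor signals, 5 passed and were higher (edgeR quasi-likelihood test with Benjamini-Hochberg adjustment), 27 had a positive log2 fold change and the median was 1.57. This list, like the others, was drawn up with earlier results of these libraries known, so its count is not independent evidence of a direction.

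Tnfaip3, which ends NF-kappaB signals, averaged 423 CPM in KC pancreas and 60.2 CPM in KC blood (log2 fold change 3.15 ± 0.52, adjusted p = 0.000771). Egr1, an early zinc finger transcription factor, averaged 247 CPM in KC pancreas and 23.9 CPM in KC blood (3.92 ± 0.69, adjusted p = 0.00222). The other 3, named after their values were seen to complete the count, were Fos (5.50 ± 1.07), Fosb (5.26 ± 1.001) and Dusp1 (2.92 ± 0.57). Fos and Fosb are subunits of the AP-1 transcription factor. Fos averaged 0.782 CPM in KC blood and was removed by the filter on low counts when KC blood was fitted alone. It entered the comparison of the tissues through its pancreas counts, so the counts of early genes that include it carry that limit. Without Sample_302P8, 3 of 29 tested early genes passed (Egr1, Fos and Tnfaip3). The share of all genes that passed there was 0.0546% (6 of 10983). With DESeq2, 11 of 30 passed, where 479 of all 11059 genes (4.33%) did. With trace set 1 alone 0 of 25 passed, with a median of 2.48, against 37 of 8253 genes in all (0.448%). With trace set 2 alone 2 of 26 passed (Dusp1 and Tnfaip3), with a median of 0.80, against 5 of 8566 genes in all (0.0584%).

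Across the KC pancreas libraries the early genes followed the members to different degrees. Spearman rho with Nr4a1 was positive for 25 of 30 early genes with a median of 0.213, against -0.0350 over all genes. With Nr4a2 it was positive for 25 of 30 with a median of 0.346, against 0.112. With Nr4a3 it was positive for 24 of 30 with a median of 0.318, against 0.0699. Fosb had rho of 0.692, 0.839 and 0.741 with Nr4a1, Nr4a2 and Nr4a3, and Dusp1 had 0.406, 0.769 and 0.881. Egr1 had 0.154, 0.210 and 0.168, although it passed between the tissues.

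No gene that carries the signal from the receptor to NFAT and MEF2 passed. Of 27 such genes 0 were called between the tissues (edgeR; 1 had an unadjusted p under 0.05, and DESeq2 called 0), 20 were positive and the median log2 fold change was 0.54. The smallest adjusted p values were those of Zap70, the kinase next to the receptor (1.86 ± 0.84, adjusted p = 0.451), and Nfatc2, an NFAT factor (1.51 ± 0.76, adjusted p = 0.514). Of 12 corepressors and partners of nuclear receptors 0 passed (0 at an unadjusted p under 0.05), DESeq2 called 0, 9 were positive and the median was 0.37, and Trim28 had the smallest adjusted p (1.55 ± 0.83, adjusted p = 0.548).

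Of 14 tested genes of tissue residency 1 passed, Rgs2, a regulator of G protein signals, which averaged 299 CPM in KC pancreas and 27.8 CPM in KC blood (3.69 ± 0.60, adjusted p = 0.000771). In this list 12 genes were positive and the median was 1.85. An unadjusted p under 0.05 was reached by 6 of them (5 higher, 1 lower), against 9.85% of all genes. DESeq2 called 3 higher, Rgs2 among them, against 4.33% of all genes. Rgs2 also passed without Sample_302P8 and with trace set 2 alone, and not with trace set 1 alone. Of 14 tested genes of T cell dysfunction 0 passed (3 at an unadjusted p under 0.05, and DESeq2 called Eomes higher and Cd244 lower), 8 were positive and the median was 0.38. Without Sample_302P8, 7 were positive and the median was -0.11. Their smallest adjusted p values were those of Cd244, an inhibitory receptor (-6.65 ± 1.62, adjusted p = 0.0852), and Eomes, a T-box factor (2.15 ± 0.86, adjusted p = 0.351).

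Of 10 genes of circulating and naive cells 0 passed (2 at an unadjusted p under 0.05, and DESeq2 called 0), 4 were positive and the median was -0.20. Tcf7, the factor TCF1, had 0.95 ± 0.34 (adjusted p = 0.306) and Cx3cr1, a chemokine receptor, had -3.18 ± 1.25 (adjusted p = 0.345). Of 7 T cell identity genes in the files 0 passed (0 at an unadjusted p under 0.05, and DESeq2 called 0) and the median was 0.04, with Cd3e at 0.62 ± 0.33 (adjusted p = 0.548) and Ptprc at 0.42 ± 0.29 (adjusted p = 0.689).

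**Figure D4:**
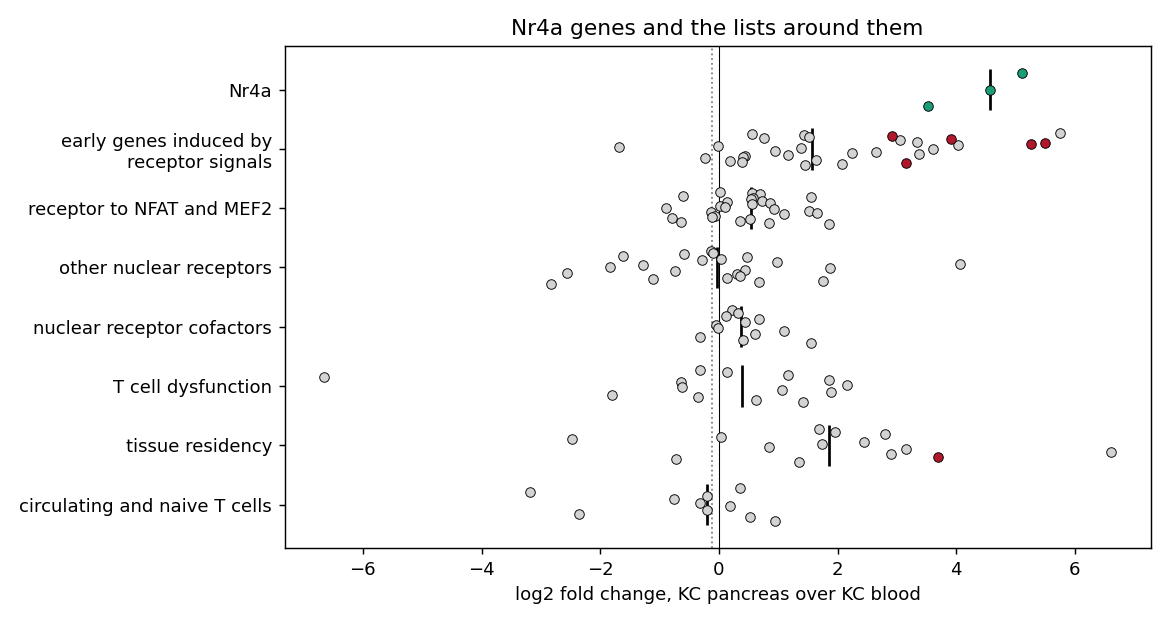
log2 fold change of KC pancreas over KC blood for the Nr4a genes (green, no test) and for the genes of 7 lists (grey, or red where the adjusted p was under 0.05). Each point is 1 gene, black lines are list medians, and the dotted line is the median of all genes, -0.12. The 5 red points among the early genes and Rgs2 in the residency list are the genes of these lists that passed. Fos, 1 of the 5, entered the test through its pancreas counts.

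Markers of other cells also differed in level between the tissues. The 11 monocyte and macrophage markers summed to between 0.000232% and 0.0560% of gene counts in KC pancreas (median 0.00459%), and to between 0.000345% and 0.0414% in KC blood (median 0.000622%), where C1qa was at 0. Of 8 tested, 7 were positive, 0 passed with edgeR or DESeq2 and 1 had an unadjusted p under 0.05 (Cd14 7.01 ± 1.89, adjusted p = 0.129), and Lyz2, the most abundant, averaged 33.0 CPM in KC pancreas and 41.1 CPM in KC blood. Sample_302P8, which had the highest CPM of Nr4a1, Nr4a2 and Nr4a3 of all libraries, also had the largest monocyte and macrophage share, 0.0560%. Sample_43P8, next in CPM for each of the 3, had 0.0122%, and Sample_133P8, with 206 CPM of Nr4a1, had 0.000337%. On TMM-scaled CPM, Sample_133P8 had the most Nr4a1 (364, against 265 in Sample_43P8 and 264 in Sample_302P8). The summed fibroblast markers were highest of all libraries in Sample_43P8, at 0.0416%, against 0% in Sample_302P8 and 0.000413% in Sample_133P8. Acinar markers made up 0.404% in Sample_43P8, 0.000342% in Sample_302P8 and 0.00835% in Sample_133P8. Without Sample_302P8 the fitted log2 fold changes of the members were 4.26 ± 1.07 for Nr4a1, 4.27 ± 1.28 for Nr4a2 and 3.48 ± 0.87 for Nr4a3.

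The 11 acinar markers summed to between 1.03e-05% and 0.852% in KC pancreas and between 1.16e-05% and 0.00680% in KC blood, with Amy2a5 at 0 in both, and 10 of 10 tested were positive with 0 passing in edgeR, 7 at an unadjusted p under 0.05 and 3 called by DESeq2 (Klk1 5.13 ± 1.42, adjusted p = 0.139; Ctrb1, the most abundant, reached 3051 CPM in KC pancreas). Without Sample_131B8 edgeR called 4 of them higher (Cel, Cpb1, Ctrb1 and Reg1), and their median log2 fold change was 5.81, against 2.99 with all libraries. The 6 fibroblast markers summed to 0% to 0.0416% in KC pancreas and 0% to 0.000113% in KC blood, where Lum was at 0, and both tested genes were positive, with 0 passing in edgeR or DESeq2 and an unadjusted p under 0.05 for both (Dcn 4.69 ± 1.61, adjusted p = 0.267; Col1a2, the most abundant, had a median of 0 CPM in KC pancreas). Platelet markers (6) summed to 0.000189% to 0.00942% in KC pancreas, where Gp1bb was at 0, and to 0.00397% to 0.0291% in KC blood, and Ppbp, the most abundant, was lower in KC pancreas (2.94 CPM, against 138 CPM in KC blood, adjusted p = 0.000116). Erythroid markers (6) summed to 0.000413% to 0.00941% in KC pancreas and 0.00244% to 0.0495% in KC blood, with Hba-a1 and Hbb-bs at 0 in both, and Alas2 was lower in KC pancreas (-4.12 ± 0.90, adjusted p = 0.0358), while Bpgm, the most abundant, did not pass. The call of Alas2 was lost without Sample_302P8 and without Sample_131B8, and DESeq2 called both Alas2 and Bpgm lower.

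In the lists of B cells (4 tested; Cd79b, the most abundant), CD4+ and regulatory T cells (4; Cd4), neutrophils (3; Csf3r, with Elane and Mpo at 0 in both KC tissues) and endothelial cells (3; Pecam1, with Kdr at 0 in both KC tissues) 0 genes passed with edgeR, and the median log2 fold changes were -1.39, 0.53, -3.26 and -0.57. An unadjusted p under 0.05 was reached by 1, 0, 2 and 1 of them, and DESeq2 called 1, 0, 0 and 1, Cd79a and Vwf, both lower in KC pancreas. The part that other cells play in the levels of the Nr4a genes was not tested.

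Age in KC pancreas was tested as a slope over the 12 libraries. In order of age, Nr4a1 had 25.9, 42.9 and 236 CPM at 4 weeks, 1.84 and 10.2 CPM at 9 weeks, 48.8, 16.9 and 206 CPM at 13 weeks, 9.40 and 4.22 CPM at 20 weeks, and 259 and 2.68 CPM at 30 weeks. The 4-week and 13-week libraries, which form trace set 1, ran from 16.9 to 236 CPM, and those of 9, 20 and 30 weeks, which form trace set 2, ran from 1.84 to 259 CPM with 1 above 10.2 CPM, so age and trace set are partly joined.

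Nr4a2 had 0.489, 75.0 and 131.3 CPM at 4 weeks, 0.526 and 28.2 CPM at 9 weeks, 30.5, 0.388 and 4.78 CPM at 13 weeks, 9.13 and 0.721 CPM at 20 weeks, and 172 and 8.03 CPM at 30 weeks. Libraries of the same age differed by 12.7-fold at 20 weeks to 269-fold at 4 weeks between the highest and the lowest. Nr4a3 had 69.0, 88.4 and 314 CPM at 4 weeks, 21.3 and 57.7 CPM at 9 weeks, 124, 24.2 and 41.5 CPM at 13 weeks, 212 and 26.5 CPM at 20 weeks, and 400 and 236 CPM at 30 weeks. At 30 weeks both libraries lay above every KC pancreas library of 9 to 20 weeks in CPM of Nr4a3, and 1 of them lay above the highest 4-week library. On TMM-scaled CPM, Sample_303P8 of 30 weeks (233) lay below Sample_204P8 of 20 weeks (252).

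None of the 3 slopes in KC pancreas passed. Per 10 weeks the log2 slope was 0.08 ± 0.61 for Nr4a1 (adjusted p = 0.993), 0.15 ± 0.57 for Nr4a2 (adjusted p = 0.988) and 0.46 ± 0.37 for Nr4a3 (adjusted p = 0.843), where 28 of 9555 genes (0.293%) passed, 4 rising and 24 falling with age. With the trace set as a term 0 of 9555 genes passed, and with DESeq2 422 did. Without Sample_302P8 the slopes were -1.87 ± 1.22 for Nr4a1 (adjusted p = 0.623), -1.34 ± 0.79 for Nr4a2 (adjusted p = 0.560) and 0.22 ± 0.46 for Nr4a3 (adjusted p = 0.940). None of the lists of early genes, residency, dysfunction, signalling to NFAT and MEF2 or other nuclear receptors had a gene that passed with age (2, 3, 2, 0 and 4 genes in that order had an unadjusted p under 0.05, against 8.95% of all genes). Of 10 tested acinar markers 5 were called lower with age, and with the trace set as a term none was, since 0 of 9555 genes passed.

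In KC blood, Nr4a1 had 2.27 and 2.57 CPM at 4 weeks, 2.42 CPM at 9 weeks, 1.83, 0.792 and 1.16 CPM at 13 weeks, 0.830 CPM at 20 weeks, and 1.46 and 1.25 CPM at 30 weeks. Nr4a3 had 3.45 and 3.09 CPM at 4 weeks, 33.1 CPM at 9 weeks, 3.66, 7.61 and 20.7 CPM at 13 weeks, 2.49 CPM at 20 weeks, and 80.2 and 5.43 CPM at 30 weeks. Nr4a2 stayed between 0.463 and 0.835 CPM in every KC blood library except Sample_302B8 of 30 weeks, with 12.05 CPM.

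The slopes in KC blood were -0.69 ± 0.77 for Nr4a1 (adjusted p = 0.829) and 0.72 ± 0.65 for Nr4a3 (adjusted p = 0.787), and Nr4a2 was removed by the filter on low counts and not tested. Of 9933 genes 0 passed (0%) in blood with edgeR, 870 had an unadjusted p under 0.05 and DESeq2 called 315. Without Sample_302B8 the Nr4a3 slope was -0.51 ± 1.14.

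The slope in KC pancreas minus that in KC blood was 0.78 ± 0.86 for Nr4a1 (adjusted p = 0.872) and -0.23 ± 0.66 for Nr4a3 (adjusted p = 0.958), against 6 of 11059 genes (0.0543%) that passed. Nr4a2 entered this fit through its pancreas counts, had 4 to 10 counts in 8 of the 9 blood libraries and could not be tested in blood alone, so its value of -0.74 ± 0.87 is given without a p. The signs turned when 1 library was left out: that of Nr4a1 to -1.17 without Sample_302P8, that of Nr4a2 to 0.40 without Sample_302B8, and that of Nr4a3 to 0.997 without Sample_302B8 and 0.32 without Sample_43P8. The libraries do not settle whether the members change with age, or change differently in pancreas and blood.

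**Figure D5:**
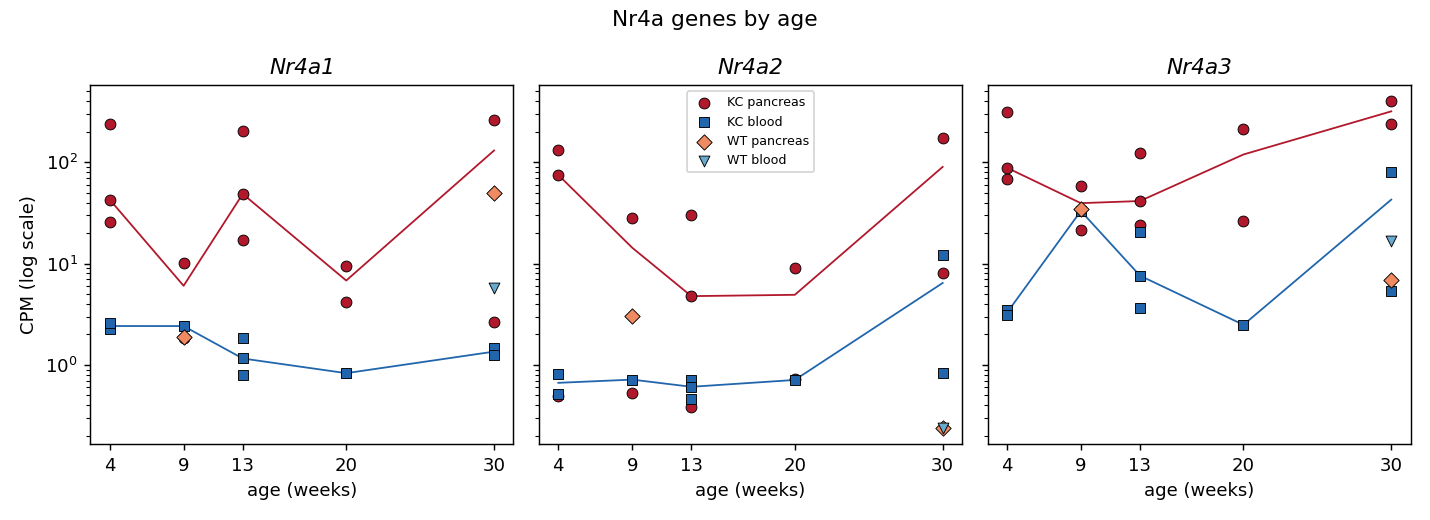
CPM of each Nr4a gene by age in weeks (log axis), with 1 point for each library and lines through the medians of KC pancreas and KC blood. Libraries of the same age in KC pancreas are far apart, as Nr4a1 at 30 weeks with 259 and 2.68 CPM. In the Nr4a2 panel the WT pancreas and WT blood points at 30 weeks lie on each other at 0.239 CPM.

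KC was compared with WT within each tissue at matched ages. In pancreas at 9 weeks, Nr4a1 had 1.84 and 10.2 CPM in KC and 1.90 CPM in WT, Nr4a2 had 0.526 and 28.2 CPM in KC and 3.04 CPM in WT, and Nr4a3 had 21.3 and 57.7 CPM in KC and 34.9 CPM in WT. For each member the WT library lay between the KC libraries on CPM. On TMM-scaled CPM, Nr4a1 in WT (1.86) lay below both KC libraries (2.03 and 6.03). Nr4a3 in WT (34.2) lay above both on that scale (23.5 and 34.0). At 30 weeks, Nr4a1 had 259 and 2.68 CPM in KC and 49.2 CPM in WT, Nr4a2 had 172 and 8.03 CPM in KC and 0.239 CPM in WT, and Nr4a3 had 400 and 236 CPM in KC and 6.94 CPM in WT. Here Nr4a2 and Nr4a3 were above WT in both KC libraries and Nr4a1 in 1 of them. The share of all genes with the same order was not counted, so with 1 WT library this order alone does not show a difference.

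None of these differences passed, but in simulated counts this fit recovered 12.1% of true log2 changes of 4 and 0% of those of 2. The fitted log2 fold change of KC over WT pancreas was 1.39 ± 1.51 for Nr4a1 (adjusted p = 0.961), 3.48 ± 2.47 for Nr4a2 (adjusted p = 0.957) and 1.60 ± 1.53 for Nr4a3 (adjusted p = 0.961), where 21 of 10829 genes (0.194%) passed, 1 higher and 20 lower in KC, among them 8 of 10 tested acinar markers (4 genes in all without Sample_W1P8). Without Sample_302P8 the value for Nr4a1 was -1.33 ± 2.43, and without Sample_W3P8, which leaves 1 WT library, that for Nr4a3 was -0.24 ± 1.63. That for Nr4a2 was 1.55 without Sample_W3P8 and 8.68 without Sample_W1P8. The KC pancreas libraries of 9 and 30 weeks are all in trace set 2 and the WT libraries in trace set 1, so genotype and trace set cannot be told apart.

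In blood at 30 weeks, Nr4a1 had 1.46 and 1.25 CPM in KC and 5.80 CPM in WT, Nr4a2 had 12.05 and 0.835 CPM in KC and 0.239 CPM in WT, and Nr4a3 had 80.2 and 5.43 CPM in KC and 16.9 CPM in WT. Both KC libraries were under the WT library for Nr4a1 and above it for Nr4a2. As in pancreas, the share of all genes with such orders was not counted, and the orders alone do not show a difference. For Nr4a2, however, Sample_303B8 had 6 counts and the WT library 4. Their exact 95% counting intervals overlap (0.306 to 1.82 CPM and 0.0652 to 0.613 CPM). The fitted log2 fold changes were -2.16 ± 2.91 for Nr4a1 and 1.22 ± 2.70 for Nr4a3 (adjusted p = 1 for each), with the lone WT library assumed to vary like the KC libraries. Of 12496 genes 0 passed (0%) with edgeR, 354 had an unadjusted p under 0.05 and DESeq2 called 4. Without Sample_302B8 the value for Nr4a3 was -1.64 ± 3.34. That of Nr4a2, 4.55 ± 3.97, is given without a p, because the gene passed the filter on low counts through Sample_302B8 (91 counts, with 4 to 10 in the other KC blood libraries) and could not be fitted without that library.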

How the data were processed

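RNA of sorted CD8+ T cells was extracted with a column kit for small samples and sequenced, per the labels' protocols. The deposited files hold the authors' read counts per gene symbol, not normalised, and TopHat, SAMtools, HTSeq and DESeq on mm10 are named per the submitters' processing notes. Versions, annotation and strand setting are not given in the sources used here. Between 11.7% and 32.5% of tallied reads were assigned to genes, and the tallies of other reads were left out. No pair of libraries within a group agreed within sampling noise.

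CPM used all gene counts of a library. Differences were tested in R 4.3.3 by two-sided, robust quasi-likelihood tests of edgeR 4.0.16, after TMM scaling and removal of low genes by filterByExpr (minimum count 10). Genes were called at a Benjamini-Hochberg adjusted p under 0.05 over all genes tested, and DESeq2 1.42.0 was an alternative. An SE was computed as the log2 fold change's size divided by the root of its F value. The tissues were compared in the 21 KC libraries with an age factor. Trends are slopes on numeric age per 10 weeks, on the log2 scale, and the interaction gave their difference. KC against WT used the 14 pancreas or 10 blood libraries with age as a factor. The fits were tested on simulated counts with true log2 changes of 1, 2 or 4 (per 10 weeks for slopes). Changes of 4 were recovered in 62.1% of cases between the tissues, 90.9% for age in KC pancreas and 86.4% in KC blood. For the difference of slopes the share was 43.9%, and for KC against WT 12.1% in pancreas and 0% in blood. Changes of 2 were recovered in 7.46%, 38.8%, 23.9%, 7.46%, 0% and 0% in the same order. Correlations used log2(CPM + 1) with 100000 permutations, or exact permutations under 10 values, two-sided. Exact (Clopper-Pearson) intervals of ratios cover counting error only.

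The trace sets rest on genes that reached 100 CPM in a source library and no more than 5% of its level elsewhere. Positions are from GENCODE and promoters from RefSeq, and all 3 symbols matched. Same-numbered libraries were checked for pairing by the correlation of their deviations, and the closing section gives the result.

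The members and the 17 other gene lists (223 of 227 genes in the files) were chosen with earlier results of these data known. The text names the members, up to 2 genes per direction and list with the smallest adjusted p, the 5 genes most like each member, the 3 most abundant other nuclear receptors and the most abundant marker of each other cell type, except 1 gene that is not reported here. Alternatives were another scaling, no filter on low counts, DESeq2, leaving out each library, leaving out Rn45s and Lars2, the trace set and other forms of age. The gene lists without Sample_302P8 or Sample_131B8, with DESeq2 and by trace set were recomputed as a choice made after seeing the data.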

Additional observations from a re-analysis of the deposited data

Results flagged for a closer look

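In KC blood, Sample_302B8 of 30 weeks stood far from the other 8 libraries in CPM of Nr4a2 and Nr4a3. Nr4a2 was at 12.05 CPM there, against 0.835 CPM in the next highest library, and the gap was 0.968 of the group's whole range, above Dixon's 95% limit of 0.493 for 9 libraries. Nr4a3 was at 80.2 CPM there, against 33.1 CPM in the next highest library, with a gap of 0.607 of the range. Nr4a1 was at 1.46 CPM, the median of the group. Of 6 checks (the highest and the lowest library for each member), 2 passed the limit, both on this library. That limit flags about 1 in 20 groups by chance only if values are normally distributed. It was applied to CPM, which are skewed here, so that rate may not hold. On log2(CPM + 1), Nr4a3 was at 6.34 in Sample_302B8, 5.09 in Sample_95B8 and 1.80 in the lowest library. The check was not run on that scale. The pancreas library with the title number of Sample_302B8, Sample_302P8, had the highest CPM of all 3 members of any library. On TMM-scaled CPM it had the most Nr4a2 and Nr4a3, and Sample_133P8 had the most Nr4a1.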

How the results depend on the processing

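Of 122 recomputed counts of called genes, 76 stayed within 1.5 times. Of 89 untested folds of the members between the tissues, 89 kept their sign and moved by less than 1 SD. That SD is the spread of log2(CPM + 1) between KC pancreas libraries. At 2.31 for Nr4a1, 2.60 for Nr4a2 and 1.47 for Nr4a3 it is a wide limit that large moves can meet. Of 272 tested values 253 kept their direction and side of the threshold. In 257 tested refits of the members by age or genotype 0 passed (lowest adjusted p 0.374). The cause was not tested for any change below. Genes called between KC pancreas and KC blood numbered 10, and 34 with no filter on low counts, 479 with DESeq2, 65 with no age term, 37 in trace set 1 alone, 5 in trace set 2 alone and 6 (without Sample_302P8) to 21 (without Sample_131B8) with 1 library left out. For age in KC pancreas they numbered 28, and 686 with no filter, 422 with DESeq2, 18 with log2 of age, 0 with the trace set as a term and 10 (without Sample_42P8) to 31 with 1 library left out (16 to 18 without Sample_204P8, Sample_41P8 or Sample_205P8). For age in KC blood they numbered 0, and 102 with no filter, 315 with DESeq2, 16 with log2 of age and 0 to 12 (without Sample_302B8 or Sample_303B8, and 3 without Sample_42B8) with 1 left out. For the difference of the slopes they numbered 6 (0.0543% of genes tested), and 50 higher with 81 lower with DESeq2 (1.18%), 0 with RLE scaling or log2 of age (0%), 1 with the trace set as a term (0.00904%) and 0 to 13 (0% to 0.110%, the most without Sample_302P8) with 1 left out. That count was 0 without any 1 of Sample_131P8, Sample_204P8, Sample_205P8, Sample_303P8, Sample_95P8, Sample_132B8, Sample_302B8, Sample_43B8 and Sample_95B8, and 1 or 2 without Sample_43P8, Sample_133B8 or Sample_42B8. For KC against WT they numbered 21 in pancreas, 163 with DESeq2 and 4 (without Sample_W1P8) to 25 with 1 left out (11 or 12 without Sample_W3P8, Sample_94P8 or Sample_95P8), and 0 in blood, 4 with DESeq2 and 0 to 2 (without Sample_132B8, and 1 without Sample_131B8) with 1 left out.

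Leaving out 1 library, the slope in KC pancreas ranged from -1.87 to 0.62 for Nr4a1 (below 0 without Sample_302P8, Sample_41P8 or Sample_42P8) and from -1.34 to 0.66 for Nr4a2 (below 0 without Sample_302P8), and with log2 of age that of Nr4a2 was -0.0743. In KC blood the Nr4a3 slope ranged from -0.51 to 1.02 (below 0 without Sample_302B8). The difference of slopes ranged from -1.17 to 1.35 for Nr4a1, -2.23 to 0.40 for Nr4a2 and -0.51 to 0.997 for Nr4a3. KC against WT in pancreas ranged from -1.33 to 1.76 for Nr4a1, from 1.55 to 8.68 for Nr4a2 and from -0.24 to 5.71 for Nr4a3 (both highest values without Sample_W1P8, and 5.61 without Sample_94P8 for Nr4a2), and in blood from -1.64 to 2.11 for Nr4a3. With TMM scaling r was 0.723 for Nr4a2 with Nr4a3 in KC pancreas, and 0.0703 for Nr4a1 with Nr4a2 and -0.140 for Nr4a1 with Nr4a3 in KC blood. On CPM as in the report, without the pair of libraries farthest from the median, the same correlations were 0.591, 0.157 and -0.0439. Deviations of same-numbered pancreas and blood libraries from their group means had correlations of -0.0511 to 0.0117, with 2 of 7 best with their own number. The means rest on 2 or 3 libraries, and at 30 weeks, with 2 per tissue, both numbers must give the same value. This check therefore cannot show whether a shared number means a shared animal. With a replicate block by title number 14 genes were called between the tissues. The log2 fold change of Nr4a2 could not be fitted in trace set 2 alone. At 3 to 10 counts, Nr4a2 in most blood libraries and in 4 pancreas libraries is near the limit of detection at this depth.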
